A study of Mus musculus with 17 samples.

Results

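The genes described here carry and end the slow, metabotropic part of GABA signalling and clear GABA from the tissue: the GABA-B receptor subunits Gabbr1 and Gabbr2, the receptor's auxiliary subunits Kctd8, Kctd12 and Kctd16, the GABA transporter Slc6a11, and the breakdown enzymes Abat and Aldh5a1. The 8 members were chosen by name. Of these, 7 were found among the 55450 genes in the deposited lists and all 7 passed the filter on low counts that left 17615 genes for testing; Kctd12 was not analysed here.

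Gene expression was measured by RNA-seq of polyadenylated RNA in 17 adult mouse hippocampi, 1 library each. The control sgLacZ group held 5 libraries from sham mice, the epileptic sgLacZ group 6 and the epileptic sgKcna1 group 6 from C57BL/6J mice made epileptic by kainic acid injected into the amygdala, a model of temporal lobe epilepsy in which status epilepticus is followed by spontaneous seizures. Every mouse, controls included, carried adeno-associated viruses for a dead Cas9 fused to a transcriptional activator (dCas9A), switched on by doxycycline in the diet, with either the sgKcna1 guide, aimed at the promoter of the potassium channel gene Kcna1, or the sgLacZ guide, which targets a bacterial gene. The doxycycline-responsive activator was driven by a Camk2a promoter, which favours excitatory neurons, and the viruses were injected into the hippocampus of 1 side; no control group with sgKcna1 was analysed here, and the labels do not say which libraries came from which animal, so p-values measure the spread between these libraries.

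GABA-B receptors are obligate heterodimers: Gabbr1 binds GABA, and Gabbr2 brings the pair to the cell surface and engages Gi/o proteins. These close presynaptic calcium channels, open GIRK potassium channels and lower cyclic AMP, and Kctd subunits bound to Gabbr2 set how fast the response starts and fades. GABA is removed by plasma membrane transporters, of which Slc6a11 (GAT3) sits mainly on astrocytes, and is then degraded in mitochondria by GABA transaminase (Abat) to succinic semialdehyde, which Aldh5a1 oxidises to succinate. The GABA-B agonist baclofen and the Abat inhibitor vigabatrin mark both arms of this pathway as drug targets.

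The whole series first needs a short account. Between 11839240 and 28311328 reads were assigned to genes per library, and 3 reads corresponded to 0.106 to 0.253 CPM (reads of a gene scaled to the library's reads in genes), a floor that covers counting error only. The share of unmapped reads ranged from 11.0% in epileptic sgLacZ replicate 4 to 41.5% in epileptic sgKcna1 replicate 12, which lay outside the 15.8% to 27.7% of the other 15 libraries. Kcna1, the targeted gene, had 13.9 to 132.5 CPM in the epileptic sgKcna1 libraries against 16.9 to 56.7 in the epileptic sgLacZ libraries (log2 fold change 0.32, SE 0.47; adjusted p = 0.706, edgeR's quasi-likelihood test); 1 library labelled epileptic sgKcna1, replicate 12, lay above all epileptic sgLacZ libraries and 2 lay below them. "Epileptic sgKcna1" therefore names libraries by their label throughout.

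The promoters of the members with a measured difference or the clearest shift are shown as reference sequence, the 250 bases before the RefSeq gene start in GRCm38.p6, 5′ to 3′ on the gene's strand. The counts are per gene and do not tell which start a transcript came from. RefSeq promoters were found for 5 of the 7 members found, and 4 are printed. The 5 motifs searched on both strands were the cyclic AMP response element TGACGTCA, its half-site TGACG (which lies within the full element), the GC box GGGCGG, the TATA box TATAAA and the E-box CACGTG. Capitals mark every match on either strand.
Gabbr1, chr17:37045716-37045965, plus strand: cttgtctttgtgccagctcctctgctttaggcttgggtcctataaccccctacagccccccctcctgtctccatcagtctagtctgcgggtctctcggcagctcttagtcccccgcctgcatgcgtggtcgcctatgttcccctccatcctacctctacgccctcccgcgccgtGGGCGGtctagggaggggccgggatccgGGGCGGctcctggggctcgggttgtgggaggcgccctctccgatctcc
Gabbr2, chr4:46991715-46991964, minus strand: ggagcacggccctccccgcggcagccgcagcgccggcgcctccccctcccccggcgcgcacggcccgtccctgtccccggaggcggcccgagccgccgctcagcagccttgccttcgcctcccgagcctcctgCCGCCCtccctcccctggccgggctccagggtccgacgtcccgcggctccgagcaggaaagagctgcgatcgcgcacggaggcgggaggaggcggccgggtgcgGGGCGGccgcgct
Slc6a11, chr6:114130991-114131240, plus strand: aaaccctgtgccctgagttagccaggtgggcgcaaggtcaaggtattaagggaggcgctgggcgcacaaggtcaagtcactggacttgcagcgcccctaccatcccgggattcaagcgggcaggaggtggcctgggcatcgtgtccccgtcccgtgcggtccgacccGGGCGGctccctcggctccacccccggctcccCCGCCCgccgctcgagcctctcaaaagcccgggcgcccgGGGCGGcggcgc
Kctd8, chr5:69341710-69341959, minus strand: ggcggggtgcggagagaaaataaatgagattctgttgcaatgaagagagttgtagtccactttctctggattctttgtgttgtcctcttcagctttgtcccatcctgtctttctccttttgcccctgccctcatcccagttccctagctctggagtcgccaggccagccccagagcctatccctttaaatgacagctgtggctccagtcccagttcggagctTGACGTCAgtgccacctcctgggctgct

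GC boxes were the motif found in Gabbr1 (2 matches), Gabbr2 (2) and Slc6a11 (3), and 32.7% of 32851 promoters of the same length held at least 1. The Kctd8 promoter held 1 full cyclic AMP response element, a sequence in 1.55% of all promoters, and no GC box. G and C made up 66.0%, 80.8% and 71.2% of the Gabbr1, Gabbr2 and Slc6a11 windows and 53.6% of that of Kctd8. The Aldh5a1 window, not printed, held 1 half-site, found in 17.8% of promoters. No TATA box (12.4% of promoters) or E-box (6.02%) lay in the 5 windows. These matches describe letters, and factor binding was not measured.

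The level of each member was compared first per length of its exons. In controls Gabbr1 had 75.1 ± 2.77 CPM per kb (SD, n = 5) and stood clear of the rest. Gabbr2 followed with 17.2 ± 1.77, Abat with 13.4 ± 1.75, Slc6a11 with 13.1 ± 2.61 and Aldh5a1 with 10.3 ± 1.06, and each of these overlapped its neighbour in the order over the 5 libraries. Kctd8 had 2.78 ± 0.281 CPM per kb, below all of them. In the epileptic sgLacZ group the order per length was Gabbr1 (93.0 CPM per kb), Gabbr2 (29.2), Slc6a11 (28.9), Abat (21.6), Aldh5a1 (10.7) and Kctd8 (2.05), with the libraries of Gabbr2, Slc6a11 and Abat overlapping. Kctd16 was left out of this order because only its coding length was at hand.

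The comparison of epileptic sgLacZ with control sgLacZ libraries asks how the epileptic state shifts these genes. The astrocytic GABA transporter Slc6a11 and the receptor subunit Gabbr2 were higher in epileptic mice, by 2.21-fold and 1.70-fold, and were the 2 of 7 members past an adjusted p of 0.05; 11.0% of all genes tested passed in either direction and 7.26% were higher. Gabbr1 and Abat had higher means and Kctd8 a lower one without passing, and Kctd16 and Aldh5a1 had similar means. No member separated the groups fully (4.39% of all genes did). Each of the 2 calls was lost under 15 of the alternatives given further on and held under 11. With 1 library left out, Gabbr2 kept its call in 5 of 17 fits and Slc6a11 in 4 of 17. Under the other settings Gabbr2 kept it in 6 of 9 and Slc6a11 in 7 of 9. In some of the fits that lost both calls, no gene of the whole table passed. By unadjusted p, 5 of 7 members were under 0.05, beside 34.7% of all genes.

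**Figure D1:**
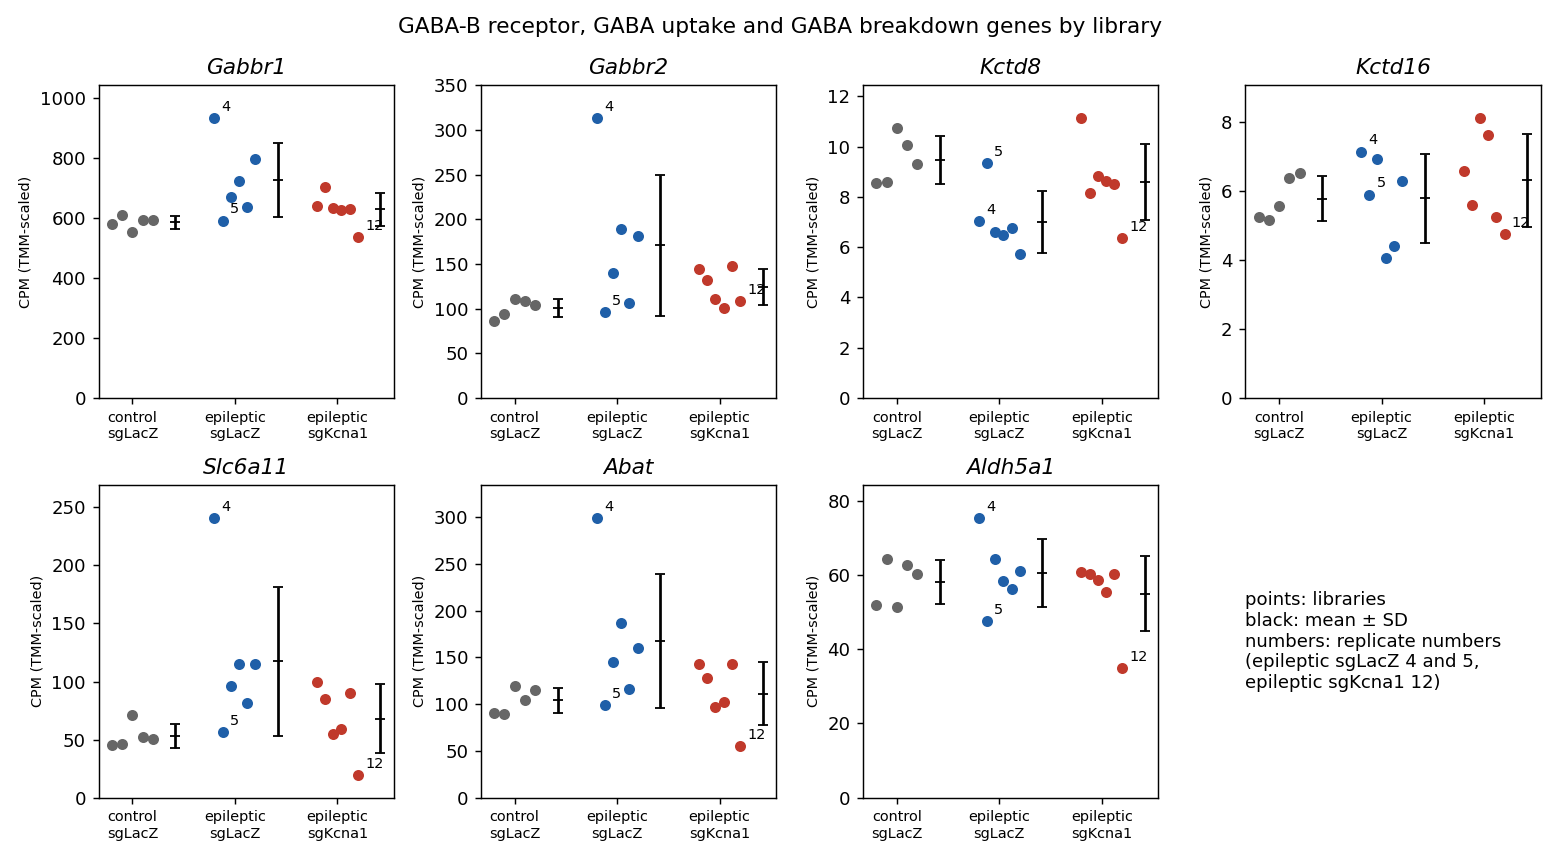
TMM-scaled CPM of the 7 members (1 panel each, y axis from 0) in the 17 libraries by group, with the mean ± SD in black. Epileptic sgLacZ replicate 4 is the highest library for Gabbr1, Gabbr2, Slc6a11, Abat and Aldh5a1, replicate 5 lies within the control range for every member but Aldh5a1, and epileptic sgKcna1 replicate 12 is the lowest of all for Slc6a11, Abat and Aldh5a1.

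Gabbr2 (ENSMUSG00000039809, chr4:46662318-46991714, GRCm38.p6, as all positions here) had 86.3, 93.8, 111, 108 and 104 CPM in the controls. In the epileptic sgLacZ libraries it ranged from 96.0 over a median of 160.4 to 313 CPM. The 4 epileptic libraries with 139.9 CPM or more lay above every control, and replicates 5 and 8 lay within the control range. The log2 fold change was 0.76 (SE 0.23; adjusted p = 0.0435, edgeR).

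Gabbr1 (ENSMUSG00000024462, chr17:37045966-37074305), the GABA-binding partner, was the most abundant member and the least variable in controls, with 580.1, 609, 551, 592 and 593 CPM. In the epileptic sgLacZ libraries its lowest, median and highest values were 591, 697 and 931 CPM, and 5 of the 6 lay above every control. The log2 fold change of 0.31 (SE 0.11) did not pass after adjustment (adjusted p = 0.0639, edgeR). The ratio of Gabbr1 to Gabbr2 reads, a measure within each library that does not depend on scaling, was 4.98 to 6.73 in controls and 2.98 to 6.15 in the epileptic sgLacZ libraries, with medians of 5.69 and 4.59. The ratio thus overlapped between the groups, with its lowest value in epileptic sgLacZ replicate 4; it was not tested.

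Kctd8 (ENSMUSG00000037653, chr5:69109285-69341709), an auxiliary subunit, had 8.55, 8.57, 10.7, 10.1 and 9.31 CPM in controls. The epileptic sgLacZ libraries had 5.71, 6.68 and 9.35 CPM as the lowest, median and highest. Replicate 5 lay within the control range and the others below every control. The difference had the opposite sign to those of the receptor subunits (log2 fold change -0.44, SE 0.15; adjusted p = 0.0625, edgeR).

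Kctd16 (ENSMUSG00000051401, chromosome 18), another auxiliary subunit, had 5.25, 5.16, 5.56, 6.40 and 6.54 CPM in controls and 4.07 to 7.15 CPM, with a median of 6.11, in the epileptic sgLacZ libraries. The epileptic values lay on both sides of the controls (log2 fold change 0.01, SE 0.18; adjusted p = 0.985, edgeR). Its value is uncertain: forward- and reverse-strand counts added up to 2.06 times the unstranded count, which marks reads shared with a gene on the opposite strand, and with the strand counts added the log2 fold change was -0.46 (adjusted p = 0.0739, edgeR). The ratio of Kctd8 to Kctd16 within libraries was 1.42 to 1.93 in controls and 0.904 to 1.59 in the epileptic sgLacZ group by unstranded counts, but 0.577 to 0.947 and 0.636 to 0.888 with both strand counts added, so the counts do not settle whether the 2 genes differed in their response.

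Slc6a11 (ENSMUSG00000030307, chr6:114131241-114249886) had 45.0, 46.7, 71.4, 51.9 and 50.3 CPM in controls. In the epileptic sgLacZ libraries the lowest value was 56.6, the median 105 and the highest 241 CPM. Of the epileptic libraries 5 lay above every control, and replicate 5 lay below the highest control. This was the largest difference among the members (log2 fold change 1.15, SE 0.35; adjusted p = 0.0455, edgeR). Of 8 astrocyte markers, all tested, 2 rose in the same comparison, the folate enzyme Aldh1l1 (log2 fold change 0.33, adjusted p = 0.0391, edgeR) and the intermediate filament Gfap (0.60, adjusted p = 0.0447), and 6 did not pass, beside 11.0% of all genes. Of these 6 the transcription factor Sox9 had the opposite sign (-0.82, adjusted p = 0.0756) and the gap junction gene Gja1 was near 0 (0.04). The others were higher without passing: Slc1a3 (0.36, adjusted p = 0.0513, edgeR), Aqp4 (0.17), Slc1a2 (0.17) and Fgfr3 (0.18). The markers' summed level was 2131 to 2485 CPM in controls and 2499 to 3364 in the epileptic sgLacZ libraries, and 1100.3 to 1194 and 1203 to 1704 without Slc1a2, the most abundant of them; none of the 8 was at 0 throughout. Their part in the Slc6a11 result was not tested, and in bulk tissue fewer or more cells of a type cannot be told apart from less or more RNA per cell.

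Abat (ENSMUSG00000057880, chr16:8513429-8621568), GABA transaminase, had 91.1, 89.9, 119, 105 and 116 CPM in controls. The epileptic sgLacZ libraries had 99.1 as the lowest, 152 as the median and 299 CPM as the highest value, and 4 of 6 lay above every control. The log2 fold change of 0.69 (SE 0.25) missed the threshold (adjusted p = 0.0715, edgeR). Aldh5a1 (ENSMUSG00000035936, chr13:24907579-24937661), the next enzyme, had 52.0, 64.2, 51.4, 62.6 and 60.2 CPM in controls and 47.6, 59.7 and 75.3 CPM as the lowest, median and highest in the epileptic sgLacZ libraries. The epileptic range enclosed that of the controls (log2 fold change 0.06, SE 0.14; adjusted p = 0.787, edgeR), and the Aldh5a1 strand counts added up to 1.16 times the unstranded count, so some of its reads fall where another gene overlaps. Across the settings other than leaving out 1 library, the Aldh5a1 log2 fold change ran from -0.14 to 0.27. The ratio of Abat to Aldh5a1 reads was 1.40 to 2.33 in controls and 2.07 to 3.97 in the epileptic sgLacZ group. Replicates 4, 7 and 9 lay above every control, and replicates 5, 6 and 8 (2.08, 2.26 and 2.07) lay within the control range. The ratio is a description without a test, and neither enzyme passed.

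The share of unmapped reads moved with these levels. Epileptic sgLacZ replicates 4, 7 and 9 had the 3 lowest shares of all 17 libraries, 11.0%, 15.8% and 17.2%, and were the 3 highest libraries of the series for Gabbr1, Gabbr2, Slc6a11 and Abat. Epileptic sgLacZ replicates 5 and 8, with shares of 24.1% and 23.8%, had the lowest Gabbr2, Slc6a11 and Abat values of their group. The controls spanned 19.5% to 27.7%, and the control with 19.5%, replicate 15, was the highest control for Slc6a11 (71.4 CPM), Gabbr2 (111) and Abat (119). For Gabbr1 the controls went the other way, with the lowest value in replicate 15 (551 CPM) and the highest in replicate 14 (609 CPM), which had 27.2% unmapped reads. The part of the share of unmapped reads in these levels was not tested.

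**Figure D2:**
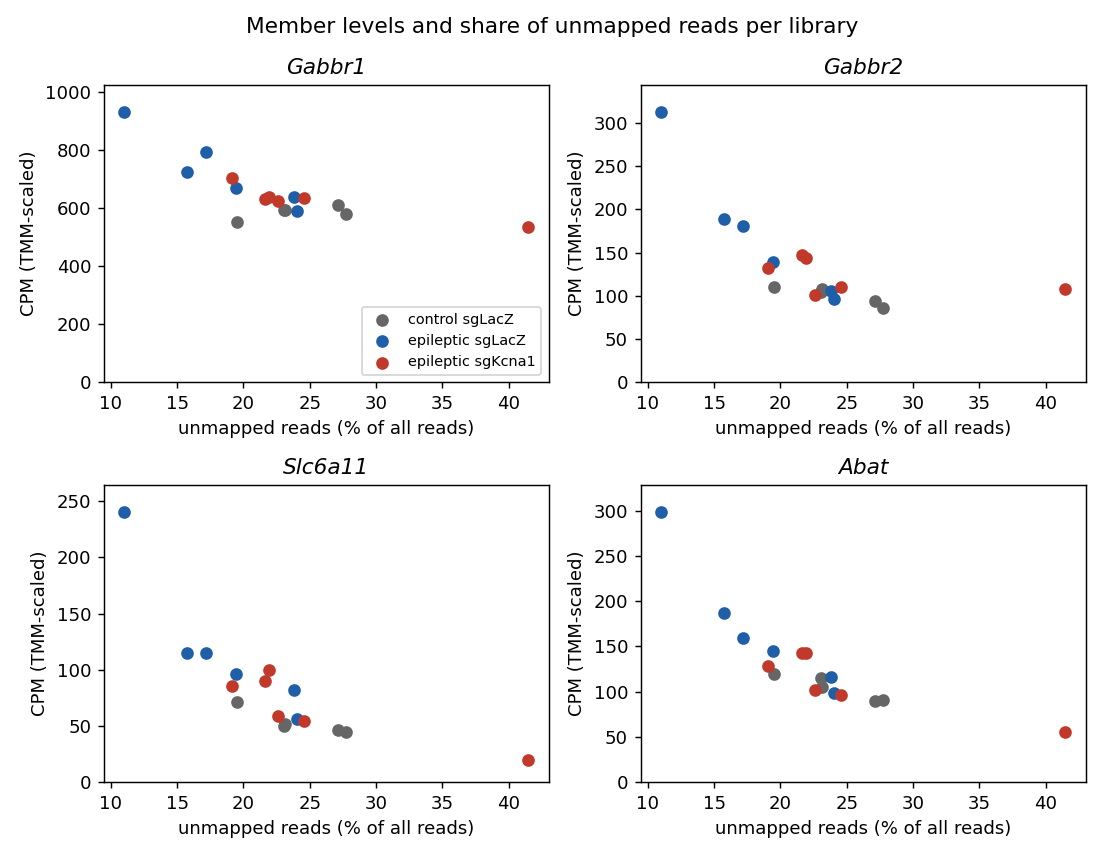
CPM of Gabbr1, Gabbr2, Slc6a11 and Abat (y axis from 0) against the share of unmapped reads in percent, 1 point per library, coloured by group. The 3 epileptic sgLacZ libraries with 11.0% to 17.2% unmapped reads carry the 3 highest values in each panel, and epileptic sgKcna1 replicate 12 lies apart at 41.5%.

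With the share of unmapped reads as a covariate, 0 members passed (2.43% of all genes did), and the log2 fold changes were 0.43 for Slc6a11 (adjusted p = 0.0952, edgeR), 0.46 for Gabbr2 (0.147), 0.18 for Gabbr1 (0.204) and 0.21 for Abat (0.308). Kctd8 kept its size, at -0.50 (adjusted p = 0.0778). With sex as read from the counts as a covariate, 0 members passed as well (Slc6a11 1.16, adjusted p = 0.0620; Gabbr2 0.71, adjusted p = 0.0654), and 2.93% of all genes did. In the other direction, DESeq2, the tool of the study, called 5 members, Gabbr1, Gabbr2, Slc6a11 and Abat higher and Kctd8 lower, beside 22.2% of genes, and limma voom with quality weights called the same 5 beside 41.4% of genes.

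Leaving out single libraries moved the count of members between 0 and 5 and the share of all genes called between 0.00% and 31.3%. Gabbr2 and Slc6a11 both lost the call without any 1 of the 5 controls (replicates 13, 14, 15, 16 and 23), without epileptic sgLacZ replicate 4, 6, 7 or 9 and without epileptic sgKcna1 replicate 2, 3 or 10, with adjusted p between 0.0503 and 0.110 for Gabbr2 and between 0.0517 and 0.123 for Slc6a11; without epileptic sgKcna1 replicate 11 Slc6a11 alone lost it (0.0509). In 7 of these fits, those without control replicate 13, 14, 16 or 23 or epileptic sgLacZ replicate 4, 7 or 9, no gene of the whole table passed, so the losses there are not particular to the members. With only the libraries of both groups in the fit, Slc6a11 and Kctd8 passed (adjusted p = 0.0295 and 0.0492, edgeR) and Gabbr2 did not (0.0522). Without epileptic sgLacZ replicate 5 or epileptic sgKcna1 replicate 12, 5 members passed, the same 5 as with DESeq2, beside 31.3% and 27.1% of all genes. The signs of these 5 held in each of the 26 alternatives, and the log2 fold change ranged from 0.43 to 1.29 for Slc6a11 and from 0.46 to 0.88 for Gabbr2.

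**Figure D3:**
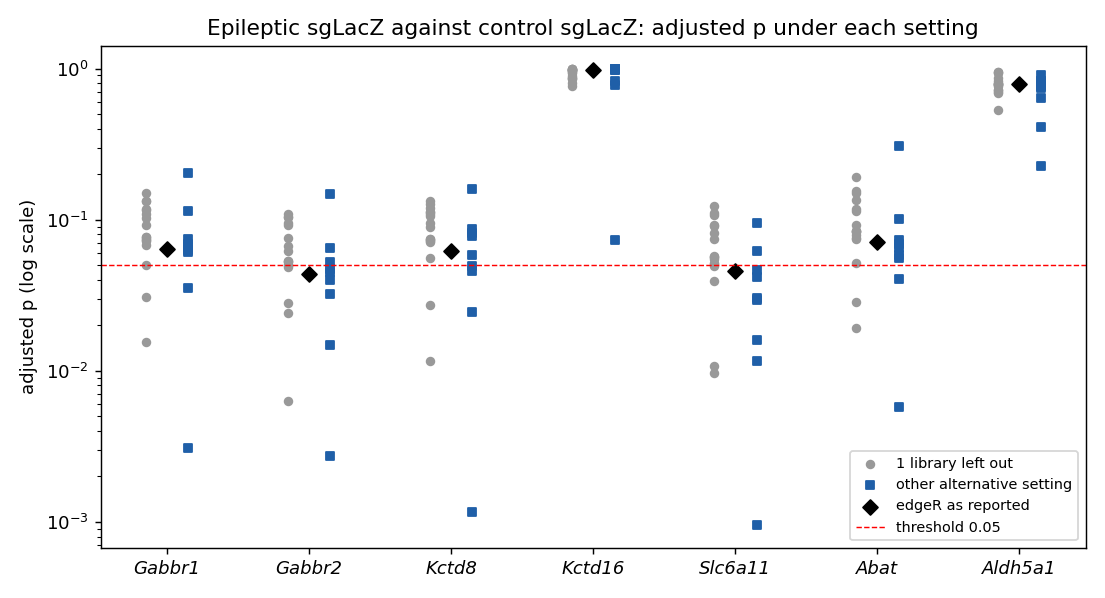
Adjusted p (log axis) of each member for epileptic sgLacZ against control sgLacZ in the edgeR test as reported (black diamonds), with 1 library left out (grey circles) and under the other settings (blue squares); the dashed line is 0.05. Gabbr1, Gabbr2, Kctd8, Slc6a11 and Abat have points on both sides of the line, and Kctd16 and Aldh5a1 only above it.

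The comparison of epileptic sgKcna1 with epileptic sgLacZ libraries asks what the Kcna1-directed guide adds in epileptic mice. No member passed, as no gene in the whole table did (0.00%), with edgeR's adjusted p. By unadjusted p, 3 of 7 members were under 0.05, all lower in the sgKcna1 libraries: Abat, Slc6a11 and Gabbr2, beside 19.2% of all genes. DESeq2 and limma voom called 0 members, beside 0.812% and 0.0681% of genes. The 2 groups overlapped for every member, and 0.483% of all genes separated them.

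In the epileptic sgKcna1 libraries Slc6a11 ran from 19.5 CPM over a median of 72.3 to 99.4 CPM, and every library lay below the 3 highest epileptic sgLacZ libraries. The log2 fold change was -0.79 (95% interval -1.47 to -0.10 from the SE and the test's degrees of freedom; adjusted p = 0.229, edgeR). Abat ran from 55.3 over 115 to 143 CPM (log2 fold change -0.59, interval -1.09 to -0.09; adjusted p = 0.225). For both genes the lowest value belonged to replicate 12, the library with 41.5% unmapped reads and the highest Kcna1 level (132.5 CPM). Without it the log2 fold changes were -0.60 and -0.46. Over all fits with 1 library left out they ranged from -0.93 to -0.45 for Slc6a11 and from -0.70 to -0.34 for Abat. With the share of unmapped reads as a covariate they were -0.09 for both.

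Gabbr2 ran from 101 over 122 to 147 CPM in the epileptic sgKcna1 libraries and Gabbr1 from 536 over 632 to 704 CPM. The log2 fold changes against epileptic sgLacZ were -0.46 (interval -0.91 to -0.01; adjusted p = 0.253, edgeR) and -0.21 (interval -0.42 to 0.01; adjusted p = 0.273). With the share of unmapped reads as a covariate they were -0.10 and -0.07, and without epileptic sgLacZ replicate 4 they were -0.20 and -0.12. Kctd8, with 6.35, 8.56 and 11.1 CPM as lowest, median and highest, had a log2 fold change of 0.30 (interval -0.00 to 0.61; adjusted p = 0.260), and 1 library, at 11.1 CPM, lay above the epileptic sgLacZ range. Kctd16, at 4.76 to 8.11 CPM, had a log2 fold change of 0.13 (interval -0.24 to 0.49) and Aldh5a1, at 34.9 to 60.8 CPM, one of -0.14 (interval -0.41 to 0.14). The intervals of Gabbr1, Kctd8, Kctd16 and Aldh5a1 hold differences of either sign, so they do not show that the groups are alike.

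The comparison of epileptic sgKcna1 with control sgLacZ libraries differs in both epilepsy and guide. Again 0 members passed, as did 0.00% of all genes with edgeR, and 0 members had an unadjusted p under 0.05 (6.77% of genes did); DESeq2 and limma voom called 0 members, beside 0.222% and 0.403% of genes, and the groups overlapped for every member (1.14% of genes did not overlap). Slc6a11 had a log2 fold change of 0.36 (interval -0.36 to 1.08; adjusted p = 0.822), with 3 of 6 libraries above every control and replicate 12 below all of them. Gabbr2 had 0.30 (interval -0.17 to 0.77; adjusted p = 0.797), with 4 of 6 above every control, and Gabbr1 0.10 (interval -0.12 to 0.33), with 5 of 6 above and replicate 12 below. Abat (0.10), Kctd8 (-0.13), Kctd16 (0.13) and Aldh5a1 (-0.08) had adjusted p between 0.847 and 0.942. The 3 comparisons share their groups, so their values are given side by side and not as separate evidence.

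**Figure D4:**
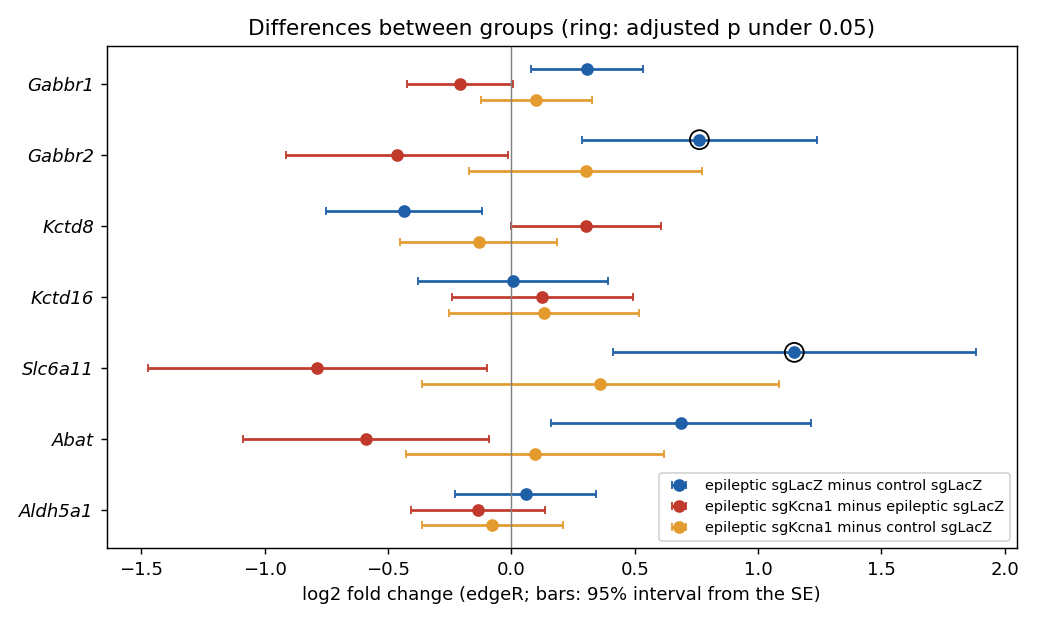
Log2 fold change of each member in the 3 comparisons (points, edgeR) with bars of the 95% interval computed from the SE and the degrees of freedom; a ring marks an adjusted p under 0.05. Rings appear only on Gabbr2 (0.76) and Slc6a11 (1.15) in epileptic sgLacZ minus control sgLacZ.

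The genes around the receptor were examined as a list of 31 partners and effectors of GABA-B receptors, of which 30 were tested. In epileptic sgLacZ against control sgLacZ, 2 rose, 0 fell and 28 did not pass, with a median log2 fold change of 0.11 against 0.02 over all genes; 7.26% of all genes tested were higher, so the count of 2 of 30 is near the background. Kcnj6, a GIRK channel subunit, rose from 3.35 ± 1.14 CPM (SD, n = 5) to 9.75 ± 5.87 (n = 6; log2 fold change 1.54, SE 0.36; adjusted p = 0.0330, edgeR), with 5 of 6 epileptic libraries above every control. With the share of unmapped reads as a covariate its log2 fold change was 1.18 (adjusted p = 0.0692). Its strand counts added up to 1.63 times the unstranded count, and with these in place of it the log2 fold change was 0.89 (adjusted p = 0.0401). Gng2, a G protein gamma subunit, had 48.8 ± 7.11 and 103 ± 40.7 CPM (log2 fold change 1.08, SE 0.25; adjusted p = 0.0330, edgeR), but its strand counts added up to 2.98 times the unstranded count, and with these in place of it the direction turned (log2 fold change -0.21, adjusted p = 0.0748), so its rise is uncertain. Both lost the call without epileptic sgLacZ replicate 4 (adjusted p = 0.0789 each, edgeR), a fit in which no gene of the whole table passed. They held it in 10 of the 17 fits with 1 library left out, which are all the fits where any gene passed. The other GIRK subunits did not pass: Kcnj9 had a log2 fold change of 0.60 (adjusted p = 0.0532) and Kcnj3 one of -0.21 (0.128). In the comparisons of epileptic sgKcna1 with epileptic sgLacZ and with control sgLacZ, 0 of the 30 passed with edgeR. Under the alternatives some did, and these genes were picked out after their values were seen. Rgs4, a regulator that speeds the turning off of G proteins, was higher with DESeq2 in both comparisons (log2 fold change 0.57, adjusted p = 0.0336, and 0.65, adjusted p = 0.0227). Against controls Rgs4 (0.62, adjusted p = 0.0318) and Kcnj9 (0.50, adjusted p = 0.0162) were higher with the share of unmapped reads as a covariate, where 1.51% of all genes passed, and Kcnj9 also without the libraries of lowest and highest unmapped share (0.62, adjusted p = 0.0475; 0.505% of all genes). Against epileptic sgLacZ, Rgs4 was higher and Kcnj6 and Gng2 lower without epileptic sgLacZ replicate 5 (adjusted p = 0.0421, 0.0421 and 0.0495), where 8.54% of all genes passed.

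A second list held 22 genes of GABA synthesis, vesicle packaging, other GABA uptake, glutamine supply and the entry of succinate's precursors into the citric acid cycle, all tested. Against controls, 1 rose, 2 fell and 19 did not pass in the epileptic sgLacZ libraries, with a median log2 fold change of 0.07; with 11.0% of all genes called, this count too is near the background. Ogdh, a subunit of the 2-oxoglutarate dehydrogenase complex that the GABA route bypasses, rose from 145 ± 7.35 to 198 ± 53.2 CPM (log2 fold change 0.46, SE 0.13; adjusted p = 0.0423, edgeR). The succinyl-CoA ligase subunits Suclg1 and Sucla2 fell, from 222 ± 26.8 to 154 ± 38.7 CPM (log2 fold change -0.53, SE 0.16; adjusted p = 0.0438) and from 224 ± 15.7 to 184 ± 17.9 CPM (-0.28, SE 0.08; adjusted p = 0.0423), and for Sucla2 all 6 epileptic libraries lay below every control. Each of the 3 lost the call without epileptic sgLacZ replicate 4 (adjusted p = 0.0901 for Ogdh, 0.105 for Suclg1 and 0.0942 for Sucla2) and with the share of unmapped reads as a covariate (0.122, 0.0616 and 0.0837). They held it in 6, 5 and 6 of the 17 fits with 1 library left out. No gene of the whole table passed without replicate 4 or in the other such fits named above, so the losses in those fits are not particular to the 3 genes.

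The GABA-making and GABA-packaging genes of interneurons did not pass: Gad1 had a log2 fold change of -0.12 (adjusted p = 0.425), Gad2 one of 0.27 (0.316) and the vesicular transporter Slc32a1 one of 0.14 (0.585). In the other 2 comparisons 0 of the 22 genes passed with edgeR or DESeq2. Without epileptic sgLacZ replicate 5, Ogdh and the glutamine transporter Slc38a3 were lower in epileptic sgKcna1 than in epileptic sgLacZ libraries (adjusted p = 0.0408 and 0.0433, edgeR). In that fit 8.54% of all genes passed. With the share of unmapped reads as a covariate, Suclg1 was lower in epileptic sgKcna1 libraries than in controls (adjusted p = 0.0445, edgeR), beside 1.51% of all genes. These genes were picked out after their values were seen.

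**Figure D5:**
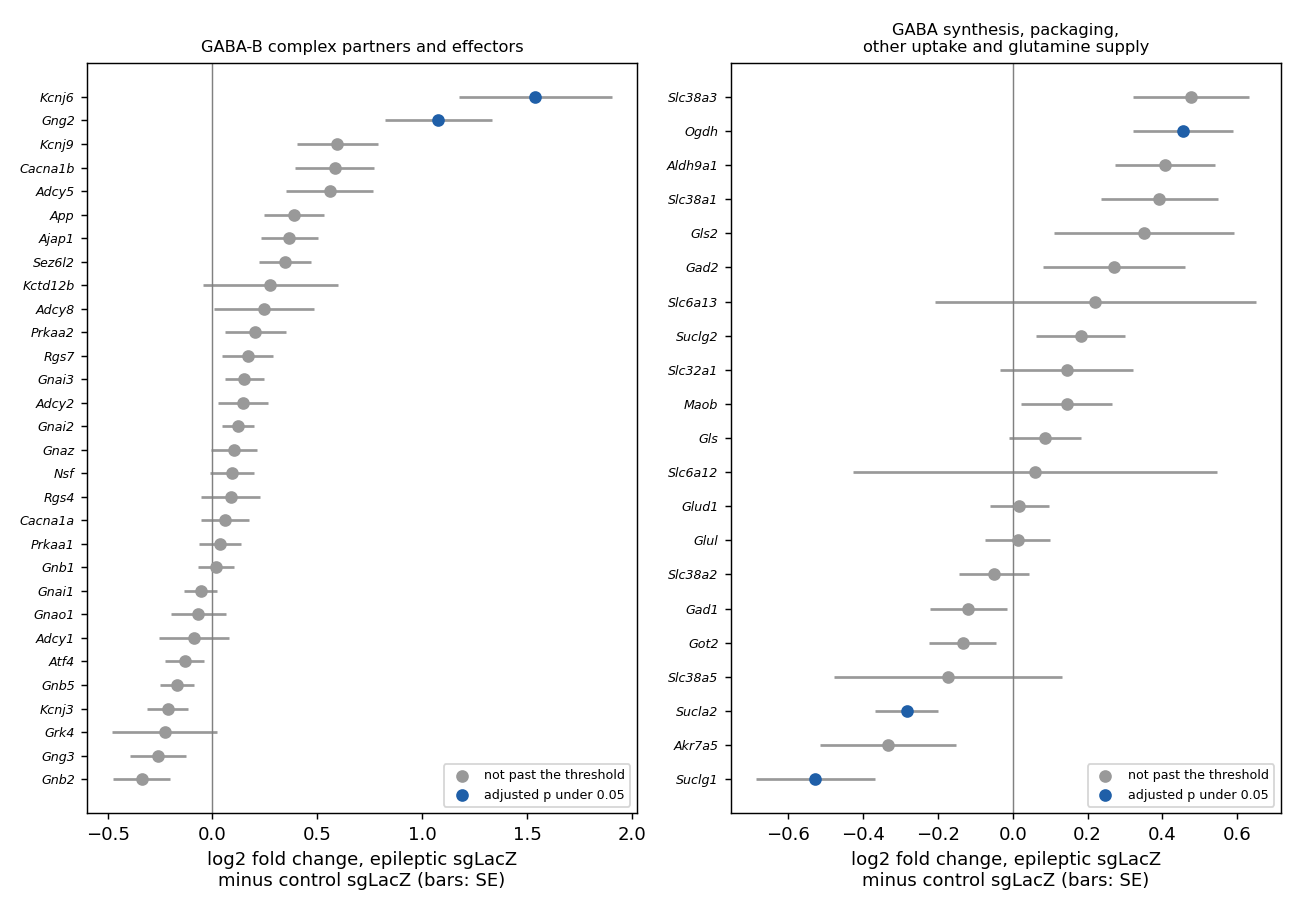
Log2 fold change with SE, epileptic sgLacZ minus control sgLacZ, for the 30 tested genes of the receptor list (left) and 21 of the 22 of the synthesis, uptake and supply list (right), ordered by value; blue marks an adjusted p under 0.05. Kcnj6 (1.54), Gng2 (1.08) and Ogdh (0.46) lie to the right and Suclg1 (-0.53) and Sucla2 (-0.28) to the left; the direction of Gng2 turns when both strand counts are used.

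Markers of neurons were read beside the receptor genes. Of 6 excitatory neuron markers 2 rose, the vesicular glutamate transporter Slc17a7 (log2 fold change 0.77, adjusted p = 0.0366, edgeR) and Wfs1 (0.49, 0.0478), beside 11.0% of all genes; Neurod2 had the opposite sign (-0.31, adjusted p = 0.416). The 6 markers' summed level was 3106 to 3651 CPM in controls and 3382 to 5585 in epileptic sgLacZ libraries. The 6 pan-neuronal markers (5427 to 5837 against 5097 to 5598 CPM) and the 7 inhibitory neuron markers (1248 to 1483 against 866 to 1355) held 0 calls. All 6 pan-neuronal log2 fold changes were negative, from -0.31 (Rbfox3) to -0.02 (Syt1), with Snap25 nearest the threshold (-0.26, adjusted p = 0.0609, edgeR). Of the inhibitory markers, Pvalb (-1.01, adjusted p = 0.0524, edgeR) and Sst (-0.80, adjusted p = 0.0505) were lower without passing. Vip (-0.38) and Gad1 (-0.12) were lower as well, and Lhx6 (0.49), Gad2 (0.27) and Slc32a1 (0.14) were higher. No marker of these lists was at 0 in all libraries, and the part of cell type in the receptor results was not tested.

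The members were last compared with one another and with all other genes by their variation within groups, as Pearson correlations of log2 CPM over the 17 libraries after each group mean was taken away. These libraries share depth and unmapped share, so the values describe the libraries and carry no test. Slc6a11 and Abat, uptake and breakdown, varied most alike (r = 0.970), followed by Gabbr2 and Abat (0.855), Slc6a11 and Aldh5a1 (0.841) and Gabbr1 and Gabbr2 (0.833). Kctd8 varied with neither receptor subunit (r = -0.13 with Gabbr1 and -0.09 with Gabbr2). Among 11382 genes, the 3 most like Slc6a11 were Tspyl2 (0.980), Pacs1 (0.975) and Pom121 (0.973), and those most like Abat were Apc2 (0.981), Rptor (0.977) and Nisch (0.974). Among those most like Gabbr2 were Kif1a (0.972) and Myh10 (0.968), and those most like Gabbr1 were Wdr81 (0.953), Anapc1 (0.939) and Btrc (0.938). For Aldh5a1 they were Zfp239 (0.949), Mpp3 (0.923) and Nt5c2 (0.923). The auxiliary subunits had no partner as close: Kctd8 was most like Atp5sl (0.798), Mmaa (0.791) and Nppc (0.765), and Kctd16 most like Egr4 (0.738), Wdr17 (0.705) and Cdkl3 (0.682). Both had low counts, 68 to 257 reads per library for Kctd8 and 51 to 210 for Kctd16, whose count is also uncertain as given above. The part of low counts in these correlations was not tested.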

How the data were processed

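The authors aligned reads to mm10 with STAR 2.7, per the labels, and deposited raw counts of reads per gene for each of 17 libraries, unstranded and for each strand; reads mapping to several places are not in these counts. The labels and the study's methods name library kits that differ in strand information. The ratio of reverse- to forward-strand reads was 0.994 to 0.998, so unstranded counts were used. The tests used edgeR 4.0.16 under R 4.3.3: filterByExpr by group, TMM scaling, 1 fit of all 17 libraries on group alone, two-sided quasi-likelihood F tests and Benjamini-Hochberg adjustment over the 17615 genes tested, with a threshold of 0.05. The SE came from the fold change and F. CPM values are TMM-scaled, except marker sums and the detection floor, which use reads in genes without TMM. Fold changes were tested on simulated counts first. Alternatives used DESeq2 1.42.0, limma 3.58.1 voom, other scaling, filters, strand columns, covariates and libraries.

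Named genes were the members, Kcna1, genes of 2 pathway lists past the threshold (at most 6 per list, comparison and direction), Gad1, Gad2, Slc32a1, Kcnj3, Kcnj6 and Kcnj9, the marker list members past the threshold, and the 3 genes most like each member with a mean of at least 5 CPM (prior count 2); markers and the genes called under alternatives alone were picked after their values were seen, and 2 genes that this rule names are not reported here. The members and lists were chosen with earlier results of these data known. Symbols came from a gene name table by Ensembl ID; positions and promoters are RefSeq's on GRCm38.p6; exon lengths came from an older build and gave no coordinates. Libraries of 1 group differed by more than sampling noise (chi-square per degree of freedom 8.67 to 220 over 40 pairs).

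Of the other marker lists in epileptic sgLacZ against control sgLacZ, microglia held 1 call of 5, and oligodendrocyte (5), endothelial and mural (4), choroid plexus (4) and fibroblast (4) markers held 0, beside 11.0% of all genes. The microglia call was Csf1r, which was higher (log2 fold change 0.38, adjusted p = 0.0356, edgeR). Tmem119 (0.25) had the same sign, and Aif1 (-0.32), Cx3cr1 (-0.27) and P2ry12 (-0.13) had the opposite sign.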

Additional observations from a re-analysis of the deposited data

Results flagged for a closer look

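Of 21 combinations of member and group examined for a library far from its group, 2 stood out, both in epileptic sgKcna1 replicate 12; chance marks about 1 in 20 groups. Gaps and ranges were taken on log2 CPM, and the flags hold for that scale only. Slc6a11 had 19.5 CPM there, the lowest value of its group, with a gap to the next library of 0.631 of the group's range in log2 CPM (critical value 0.625 for 6 libraries). Aldh5a1 had 34.9 CPM there, with a gap of 0.828 of the range in log2 CPM. This library also had the fewest assigned reads (11839240), the highest share of unmapped reads (41.5%) and the highest Kcna1 level (132.5 CPM), and their part in both values was not tested.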

How the results depend on the processing

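No paired analysis was possible because the groups share no replicate numbers. Over 26 alternatives, 1 of which (leaving out the libraries with the lowest and the highest unmapped share) was chosen after seeing the data, 0 members passed in both comparisons with epileptic sgKcna1. In epileptic sgLacZ against control sgLacZ, 2 members passed as reported, 5 with DESeq2 and with voom, and 0 with a covariate for unmapped share or for sex, which was not in the labels; with 1 library left out the count was 0 to 5, and in the other settings 2 to 3. Of these, the fit of the 2 groups alone called Slc6a11 and Kctd8 but not Gabbr2, and leaving out the extreme libraries called Gabbr2, Slc6a11 and Kctd8. The count over all genes was 1940 as reported, 3686 with DESeq2, 7301 with voom, 3045 with the 2 groups alone, 3106 without the libraries of extreme unmapped share, 428 and 516 with the covariates, and 0 to 5526 with 1 library left out. The covariate fits separate group from unmapped share only where the groups overlap in it. Log2 fold changes reversed only for members close to 0, and the cause was not tested. For Kctd16 in epileptic sgLacZ against control sgLacZ they were -0.000916 with DESeq2, -0.00410 with RLE scaling, -0.46 with both strands, -0.10 with the unmapped share, -0.00760 with voom, -0.0661 without the extreme libraries and -0.0631 to 0.0921 with 1 library left out; for Aldh5a1 they were -0.14 with the unmapped share, -0.0177 without the extreme libraries and -0.0147 to 0.118 with 1 library left out. For Aldh5a1 in epileptic sgKcna1 against epileptic sgLacZ they were 0.0688 with the unmapped share and 0.0348 without the extreme libraries, and against controls 0.0171 without these and -0.121 to 0.0144 with 1 library left out. Kctd16 in that comparison was -0.0278 with both strands. The lowest count of a member was 51 reads, for Kctd16 in epileptic sgKcna1 replicate 12, the library with the fewest assigned reads. The part of depth in the results was not tested.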
